A study of Homo sapiens with 24 samples.

Results

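The bone morphogenetic protein (BMP) pathway was followed in cultured human mammary epithelial cells through 9 genes: the ligands BMP2 and BMP4, the receptor-activated factor SMAD9, the inhibitory factor SMAD6, the 4 ID genes ID1, ID2, ID3 and ID4, and the transcription factor ATOH8. They were chosen by name, matched to the Ensembl identifiers of the count table, and are 9 of its 60668 rows. The choice was made with earlier results of these data known, in which ATOH8 had been singled out. Counts and medians of the set are therefore a description, not independent support. The parental cells were MCF-10A, an immortalised line from human breast epithelium labelled wild-type. The other cells were MCF-10A with genotype MYC.ER, written MYC-ER here. In such fusions the transcription factor MYC is joined to an oestrogen receptor domain and becomes active once 4-hydroxytamoxifen (4-OHT) is bound. Both were grown in three-dimensional culture on growth factor reduced Matrigel, received 1 µM 4-OHT for the last 0, 8, 24 or 48 h, and were all collected on day 5. The 8 groups of line and time hold 3 replicates each, 24 libraries in all. The labels name no vehicle control and give neither the promoter that drives the fusion nor whether the MYC-ER line is a single clone. They do not say that replicates were separate cultures beyond wells seeded in triplicate, so a p-value measures the spread between these samples, which may be technical. That spread was estimated per gene over all 24 libraries together, not within the groups compared.

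BMP ligands bind paired type I and type II receptor kinases, which phosphorylate SMAD1, SMAD5 and SMAD9. These enter the nucleus with SMAD4 and switch on target genes, among which the ID genes and SMAD6 are the classic examples, and SMAD6 protein then restrains the receptors. ID proteins carry a helix-loop-helix without a DNA-binding region, and hold the E proteins TCF3, TCF4 and TCF12 away from DNA. ATOH8 is a basic helix-loop-helix factor known as a BMP target in endothelial and liver cells.

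Epithelial identity was plain in every library, with KRT5 between 6763 and 14120 CPM (a gene's counts scaled to the library total, with TMM factors). KRT14 ran from 603 to 10880 CPM and EPCAM from 1.73 to 77.75 CPM. Summed, the 7 epithelial markers held 13450 to 13930 CPM in MYC-ER before 4-OHT and 11770 to 13080 CPM after 8 h. The sum was 8421 to 9025 CPM after 48 h, and 15190 to 25640 CPM in parental cells. CDH5 of endothelial cells and CD3E of immune cells had no count in any of the 24 libraries. Of the 6 fibroblast markers, COL1A1 (53.6 to 220 CPM) and DCN (21.0 to 157 CPM) were expressed, and COL1A2, COL3A1 and PDGFRA stayed at or below 0.0618 CPM. Summed over the 6, the fibroblast markers held 369 to 376 CPM in MYC-ER before 4-OHT, 101 to 109 CPM after 8 h, and 76.7 to 132 CPM in parental cells. The 5 endothelial markers summed to 0.0812 to 0.159 CPM and 2.18 to 2.73 CPM in those same MYC-ER groups, with 2 of the 5 at 0 in both. Among the immune markers CD68, a lysosomal protein of macrophages, had counts in every library (4.199 to 23.6 CPM), and the immune sum was 15.4 to 18.4 CPM in MYC-ER before 4-OHT, 20.6 to 23.6 CPM after 8 h and 4.199 to 6.77 CPM after 48 h. The part of these shifts in the results was not tested. Library totals ran from 136860029 to 182438505 counts. The 3 parental 0 h libraries differed more from each other than other replicates did, with a chi-square per degree of freedom of 159 to 261 between pairs, against 8.45 to 63.3 in the other groups, and the first of them had the lowest mitochondrial share (3.86%, against 5.51 to 9.71% elsewhere). MYC transcripts, which in MYC-ER cells may include the fusion, were at 387 ± 8.02 CPM at 0 h and 795 ± 1.77 CPM at 8 h in MYC-ER (SD, n = 3).

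By the RefSeq gene table of GRCh38.p14, the genes lie, with their strand, as follows: ID1 (ENSG00000125968.9) at chr20:31605289-31606510 (plus), ID2 (ENSG00000115738.10) at chr2:8682056-8684461 (plus), ID3 (ENSG00000117318.9) at chr1:23557926-23559501 (minus), ID4 (ENSG00000172201.12) at chr6:19837370-19842197 (plus), SMAD6 (ENSG00000137834.15) at chr15:66702236-66782849 (plus). The remaining genes are SMAD9 (ENSG00000120693.13) at chr13:36844831-36920854 (minus), BMP2 (ENSG00000125845.7) at chr20:6767686-6780246 (plus), BMP4 (ENSG00000125378.16) at chr14:53949736-53956891 (minus) and ATOH8 (ENSG00000168874.13) at chr2:85753991-85791383 (plus).

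RefSeq promoters (GRCh38.p14) were at hand for 8 of the 9 genes, BMP2 being the exception. The 250 bases before the start are shown for 3 ID genes, whose RNA responded differently, and for SMAD6. Capitals mark TATAAA and CCAAT boxes and the palindromic SMAD box GTCTAGAC, on either strand. In order, they lie at chr20:31605039-31605288 (plus strand), chr2:8681806-8682055 (plus), chr1:23559502-23559751 (minus) and chr15:66701986-66702235 (plus).
ID1: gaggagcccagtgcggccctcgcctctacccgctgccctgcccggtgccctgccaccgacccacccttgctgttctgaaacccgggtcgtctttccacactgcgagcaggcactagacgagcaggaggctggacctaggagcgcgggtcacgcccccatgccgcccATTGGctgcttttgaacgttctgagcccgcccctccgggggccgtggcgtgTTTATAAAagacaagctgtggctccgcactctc
ID2: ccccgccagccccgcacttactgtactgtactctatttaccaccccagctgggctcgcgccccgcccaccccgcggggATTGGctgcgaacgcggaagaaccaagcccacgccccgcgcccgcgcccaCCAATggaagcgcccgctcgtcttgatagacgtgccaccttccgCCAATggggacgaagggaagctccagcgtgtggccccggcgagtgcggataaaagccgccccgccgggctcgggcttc
ID3: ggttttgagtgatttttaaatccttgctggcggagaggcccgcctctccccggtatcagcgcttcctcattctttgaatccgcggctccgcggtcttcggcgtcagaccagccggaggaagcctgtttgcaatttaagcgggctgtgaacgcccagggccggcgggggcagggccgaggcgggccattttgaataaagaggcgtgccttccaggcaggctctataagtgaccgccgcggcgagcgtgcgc
SMAD6: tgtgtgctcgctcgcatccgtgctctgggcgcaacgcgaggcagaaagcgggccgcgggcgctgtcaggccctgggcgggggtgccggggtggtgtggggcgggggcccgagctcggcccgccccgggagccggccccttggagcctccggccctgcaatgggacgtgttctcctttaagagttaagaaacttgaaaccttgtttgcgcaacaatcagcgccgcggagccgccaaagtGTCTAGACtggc
TATAAA was found in ID1 (as overlapping matches on both strands) and ID4, and in 10.7% of 35116 promoters of this length. CCAAT was found in ID1, ID2 and ID4 (32% of promoters), and GTCTAGAC in SMAD6, 12 bases before its start (0.182%, or 64 promoters). The E-box CACGTG, the core recognised by MYC, was present in promoter windows of SMAD9 and of BMP4 (6.34%), and the GC-rich SMAD motif GGCGCC in one of BMP4 (16.4%). These windows precede listed starts that lie inside the gene spans given above. BMP4 had 3 such starts, with the E-box at start 3 and GGCGCC at start 1. The shares are per promoter, so a gene with 3 had more chances of a match. ATOH8 and ID3 carried none of the 5 motifs in this window. A match describes the letters and shows no binding.

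After 8 h of 4-OHT in MYC-ER cells the genes of the set split. ID1 rose 3.05-fold, ID3 was at 0.05 ± 0.09 (log2 change ± SE, adjusted p = 0.63), and ATOH8, SMAD6, BMP4, SMAD9 and ID2 fell, ATOH8 by 37.9-fold. Of the 8 genes with enough counts to test, 1 was called higher and 5 lower, where 32.2% of the 22158 genes tested were called higher and 35.4% lower. The median log2 change of the 8 was -0.93, against -0.10 over all genes tested. At 24 h 2 were higher and 6 lower (30.4% and 31.2% of all genes), and at 48 h none was higher and 7 lower (23.4% and 20.7%), with medians of -0.64 and -0.76 against -0.02 and 0.03. Without regard to sign, the median change of the 8 was 1.41, 0.64 and 0.76 at 8, 24 and 48 h, against 0.79, 0.64 and 0.36 over all genes tested. At 24 h the set thus moved about as much as all genes. These calls came from edgeR's quasi-likelihood test with Benjamini-Hochberg adjustment over all genes tested and a threshold of 0.05.

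**Figure D1:**
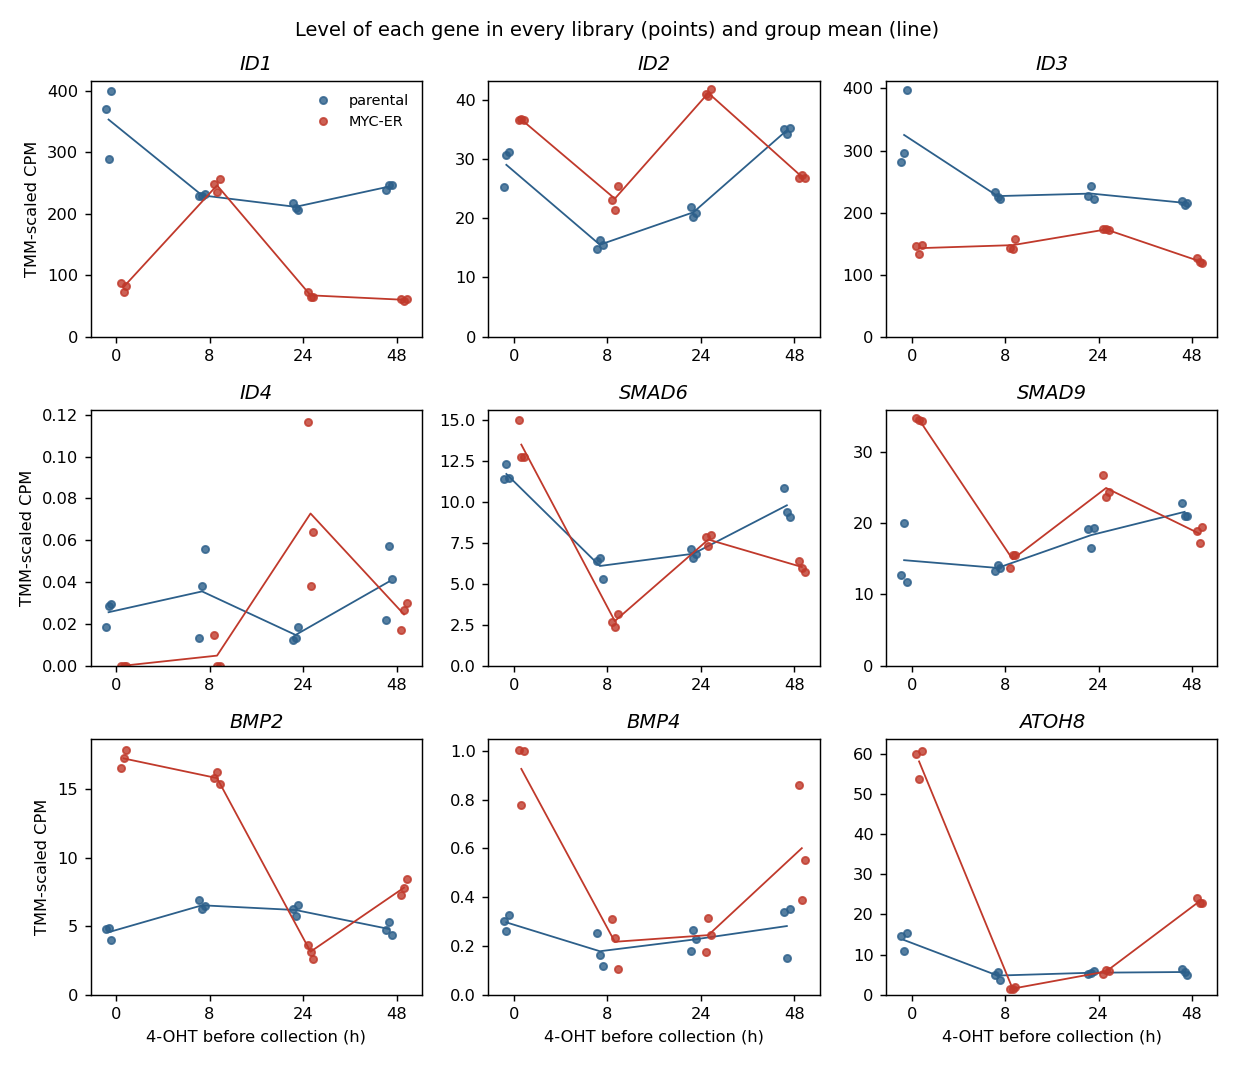
TMM-scaled CPM (linear axis from 0, its own scale for each gene) of the 9 genes in each of the 24 libraries against hours of 4-OHT, with parental cells in blue and MYC-ER cells in red; lines join the means of 3 replicates. ATOH8 drops from 58.1 to 1.53 CPM in MYC-ER at 8 h, and ID1 in MYC-ER rises to 246 CPM at 8 h, beside 230 CPM in parental cells.

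BMP2, a secreted ligand, changed in MYC-ER cells only at the later times. MYC-ER libraries held 16.6, 17.3 and 17.9 CPM at 0 h, 15.8, 16.2 and 15.3 CPM after 8 h, 3.66, 3.13 and 2.63 CPM after 24 h, and 7.27, 7.76 and 8.40 CPM after 48 h. The 8 h values lay just below those at 0 h, all 24 h and 48 h values far below, and the 48 h values lay above the 24 h values. BMP2 was at -0.13 ± 0.10 after 8 h (adjusted p = 0.28), fell by 2.45 ± 0.11 after 24 h (5.48-fold, adjusted p = 1.1e-14) and remained lower by 1.14 ± 0.10 after 48 h (log2 -1.14). From 24 to 48 h it rose by 1.31 ± 0.10.

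In parental cells BMP2 was low throughout. Its libraries held 4.76, 4.90 and 4.02 CPM at 0 h, 6.89, 6.24 and 6.43 after 8 h, 6.22, 5.75 and 6.56 after 24 h, and 4.71, 5.28 and 4.38 after 48 h. The 8 and 24 h values lay above those at 0 h, with rises of 0.52 ± 0.10 and 0.44 ± 0.10 (adjusted p = 0.00076 and 0.0015). The 48 h values overlapped those at 0 h (log2 change 0.07 ± 0.10, adjusted p = 0.64, with a sign that depended on single libraries).

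BMP4, the other ligand of the set, was scarce, with 16 to 173 counts per library. Its mean was 0.926 ± 0.129 CPM in MYC-ER at 0 h, 0.217 ± 0.103 after 8 h, 0.245 ± 0.0705 after 24 h and 0.601 ± 0.238 after 48 h (SD, n = 3). The 8 and 24 h values lay below all 0 h values, and the 48 h values (0.859, 0.3897 and 0.554 CPM) overlapped them. It fell by 2.09 ± 0.38 at 8 h and 1.92 ± 0.38 at 24 h, while the 48 h change of -0.62 ± 0.36 did not pass (adjusted p = 0.17). In parental cells its group means lay between 0.179 and 0.297 CPM, and the 3 changes from 0 h did not pass (adjusted p from 0.16 to 0.91).

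SMAD9 is, with SMAD1 and SMAD5, a receptor-activated SMAD of the BMP branch. In MYC-ER cells it was at 34.7, 34.5 and 34.3 CPM at 0 h and fell to 13.7, 15.5 and 15.6 CPM at 8 h (log2 -1.21 ± 0.13). Its means at 24 and 48 h were 24.9 ± 1.61 and 18.5 ± 1.11 CPM, both lower than at 0 h (log2 -0.47 ± 0.13 and -0.90 ± 0.13). Every later library lay below the 0 h libraries. In parental cells a single 0 h library stood out, with 12.8, 19.9 and 11.7 CPM at 0 h, 13.3 to 14.1 after 8 h, 16.5 to 19.3 after 24 h and 20.9 to 22.8 after 48 h. At 8 h the parental change was -0.11 ± 0.13 (adjusted p = 0.57), and 0.17 without parental 0 h replicate 2. With GC and length trends removed it was -0.25 and called lower (adjusted p = 0.042). The parental rise of 0.54 ± 0.13 at 48 h passed (adjusted p = 0.0016), though not with only the groups compared (0.55, adjusted p = 0.081), and was 0.28 with GC and length trends removed. That of 0.31 ± 0.13 at 24 h did not (adjusted p = 0.057). Without parental 0 h replicate 2 the 24 h change was 0.58 (adjusted p = 1.9e-06), without parental 24 h replicate 2 it was 0.38 (adjusted p = 0.036), and over all 33 alternatives its adjusted p ran from 1.9e-06 to 0.83.

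SMAD6, whose product blocks BMP receptor signalling, reached its lowest point at 8 h in MYC-ER cells. The libraries held 15.0, 12.8 and 12.7 CPM at 0 h, 2.64, 2.38 and 3.15 after 8 h, 7.82, 7.29 and 7.97 after 24 h, and 6.39, 5.94 and 5.72 after 48 h. No later value reached the 0 h values, and the 8 h values were the lowest of the 24 libraries. The changes were -2.31 ± 0.11 after 8 h (4.95-fold lower, adjusted p = 2.7e-14), -0.81 ± 0.10 after 24 h and -1.16 ± 0.10 after 48 h. In parental cells it fell from 11.4, 12.3 and 11.4 CPM to 6.37, 6.56 and 5.30 at 8 h and 7.13, 6.56 and 6.79 at 24 h (log2 -0.94 ± 0.10 and -0.78 ± 0.10). At 48 h the parental libraries held 10.9, 9.38 and 9.09 CPM. That change of -0.26 ± 0.10 had an adjusted p of 0.048, and 23 of the 33 alternatives, among them each parental 0 h library left out in turn, moved it past 0.05, with adjusted p from 0.019 to 1 over the 33.

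ID1 showed the only rise of the set at 8 h in MYC-ER cells. Its libraries there held 87.4, 71.8 and 82.8 CPM at 0 h, 248, 235 and 256 after 8 h, 72.2, 64.6 and 64.6 after 24 h, and 60.7, 58.5 and 60.4 after 48 h. The 8 h values stood clear of the others, the 24 h values overlapped those at 0 h, and the 48 h values lay below them. It rose by 1.61 ± 0.09 at 8 h (adjusted p = 2.9e-13), then fell by 1.87 ± 0.09 from 8 to 24 h. At 24 h it was lower than at 0 h by 0.27 ± 0.08 (log2 -0.27, adjusted p = 0.0095), and at 48 h it was at -0.43 ± 0.08 (adjusted p = 0.00025). The 24 h call did not hold without MYC-ER 0 h replicate 1 (-0.20), MYC-ER 24 h replicate 2 (-0.21) or MYC-ER 24 h replicate 3 (-0.21), nor with plain library size (-0.15).

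Parental ID1 moved the other way at 8 h. It went from 371, 290 and 399 CPM at 0 h to 228, 229 and 232 after 8 h, 218, 209 and 207 after 24 h, and 239, 246 and 247 after 48 h. Every treated library lay below the 0 h libraries, whose own range was the widest. The changes were -0.62 ± 0.08, -0.74 ± 0.08 and -0.53 ± 0.08 at 8, 24 and 48 h.

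ID3, usually induced together with ID1, did not follow it. MYC-ER libraries held 146, 134 and 148 CPM at 0 h, 143, 142 and 158 after 8 h, 173, 173 and 172 after 24 h, and 127, 120 and 118 after 48 h. The 0 and 8 h values overlapped, the 24 h values were above them and the 48 h values below. The change at 8 h was 0.05 ± 0.09 and turned negative with library size (-0.04), with GC trends removed (-0.01), with GC and length trends removed (-0.05) and without MYC-ER 8 h replicate 3 (-0.0041). ID3 rose by 0.28 ± 0.09 at 24 h (adjusted p = 0.0079) and fell by 0.23 ± 0.09 at 48 h (adjusted p = 0.034), a fall that was not called with plain library size (-0.07), with no filter (-0.23), or without any of 4 single libraries: it was -0.21 without MYC-ER 0 h replicate 1, -0.20 without MYC-ER 0 h replicate 3, -0.22 without MYC-ER 48 h replicate 2 and -0.21 without MYC-ER 48 h replicate 3. Parental ID3 went from 282, 295 and 398 CPM at 0 h to 222 to 233 after 8 h, 221 to 243 after 24 h and 213 to 219 after 48 h. All treated libraries lay below those at 0 h, with changes of -0.52 ± 0.09, -0.50 ± 0.09 and -0.59 ± 0.09.

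The count of ID1 over that of ID3 within a library, which no scaling between libraries can alter, set the 2 genes against each other. In MYC-ER it was 0.600, 0.537 and 0.558 at 0 h, 1.74, 1.65 and 1.62 after 8 h, 0.417, 0.374 and 0.375 after 24 h, and 0.480, 0.487 and 0.512 after 48 h. Each time stood apart from the others without overlap. The log2 ratio was higher at 8 h than at 0 h by 1.56 (exact permutation test, two-sided, p = 0.1, the smallest that 3 against 3 can give). In parental cells the ratio lay between 0.857 and 1.32 in all 12 libraries, and its change from 0 to 8 h was -0.10 (exact p = 0.8). These were 2 of 14 such comparisons, none of which could pass 0.05.

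**Figure D2:**
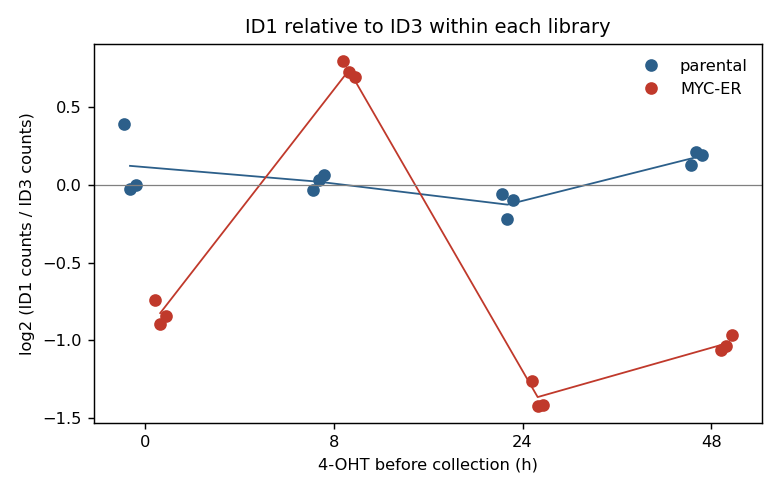
Log2 of ID1 counts over ID3 counts in each library against hours of 4-OHT, parental in blue and MYC-ER in red, with lines through the means of 3 replicates. The MYC-ER points pass from -0.82 on average at 0 h to 0.74 at 8 h and -1.37 at 24 h, while the parental means stay between -0.13 and 0.18.

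ID2 followed neither time course. In MYC-ER it fell from 36.6, 36.8 and 36.5 CPM at 0 h to 23.0, 21.4 and 25.5 after 8 h, was at 40.9, 40.6 and 41.8 after 24 h and at 26.8, 27.3 and 26.8 after 48 h. No 2 of these groups overlapped. The changes from 0 h were -0.65 ± 0.07, 0.17 ± 0.07 and -0.44 ± 0.07. The 24 h rise (adjusted p = 0.034) did not pass when any of MYC-ER 0 h replicate 1, 2 or 3 or MYC-ER 24 h replicate 1 was left out (0.17, 0.17, 0.16 and 0.17), nor with GC and length trends removed (0.12). Parental ID2 went from 25.3, 30.6 and 31.1 CPM to 14.8, 16.2 and 15.5 after 8 h (log2 -0.90 ± 0.07) and 21.8, 20.2 and 20.9 after 24 h (-0.47 ± 0.07), and reached 35.1, 34.2 and 35.2 after 48 h (0.26 ± 0.07). The 48 h rise was not called with only the groups compared (0.27, adjusted p = 0.12), and with GC and length trends removed the 24 and 48 h changes were -0.20 and 0.54. An antisense gene, ID2-AS1, overlaps ID2, and the labels do not say whether counting used strand.

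ID4 was close to undetected. It had 0 counts in all 3 MYC-ER 0 h libraries, which allows up to 0.0166 to 0.0175 CPM, 2, 0 and 0 after 8 h, 20, 6 and 10 after 24 h and 3, 4 and 5 after 48 h. Parental libraries had 2 to 9 counts. It did not pass the filter on low counts. With no filter, and with DESeq2, the 24 and 48 h values in MYC-ER were called higher than at 0 h (adjusted p = 8.8e-05 and 0.0028 with no filter), and no fold change is given, since it depends on the prior count. An antisense gene, AL022068.1, overlaps ID4, and whether counting used strand is not given.

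ATOH8 made the steepest change. MYC-ER libraries held 59.8, 53.8 and 60.7 CPM at 0 h, 1.35, 1.41 and 1.83 after 8 h, 5.18, 6.19 and 6.03 after 24 h, and 24.2, 22.9 and 22.8 after 48 h. The groups did not overlap, and the level climbed back from 8 h on without reaching that at 0 h. It fell by 5.24 ± 0.17 after 8 h (37.9-fold, adjusted p = 4.4e-17), and was at -3.33 ± 0.15 after 24 h (10.02-fold lower) and -1.32 ± 0.14 after 48 h (2.49-fold lower). From 8 to 24 h and from 24 to 48 h it rose by 1.92 ± 0.15 and 2.01 ± 0.14. Parental libraries went from 14.5, 10.9 and 15.5 CPM to 4.99, 5.59 and 3.76 after 8 h, 5.17, 5.36 and 5.94 after 24 h and 6.38, 5.63 and 5.00 after 48 h. The parental values after 4-OHT lay below all those at 0 h and overlapped each other (log2 -1.51 ± 0.14, -1.31 ± 0.14 and -1.26 ± 0.14), so ATOH8 was also lower after 4-OHT in cells without the fusion. The microRNA gene MIR6071 overlaps ATOH8 on the opposite strand. On the same strand, the intronic genes AC013564.1 and SMAD9-IT1 overlap SMAD6 and SMAD9, respectively.

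**Figure D3:**
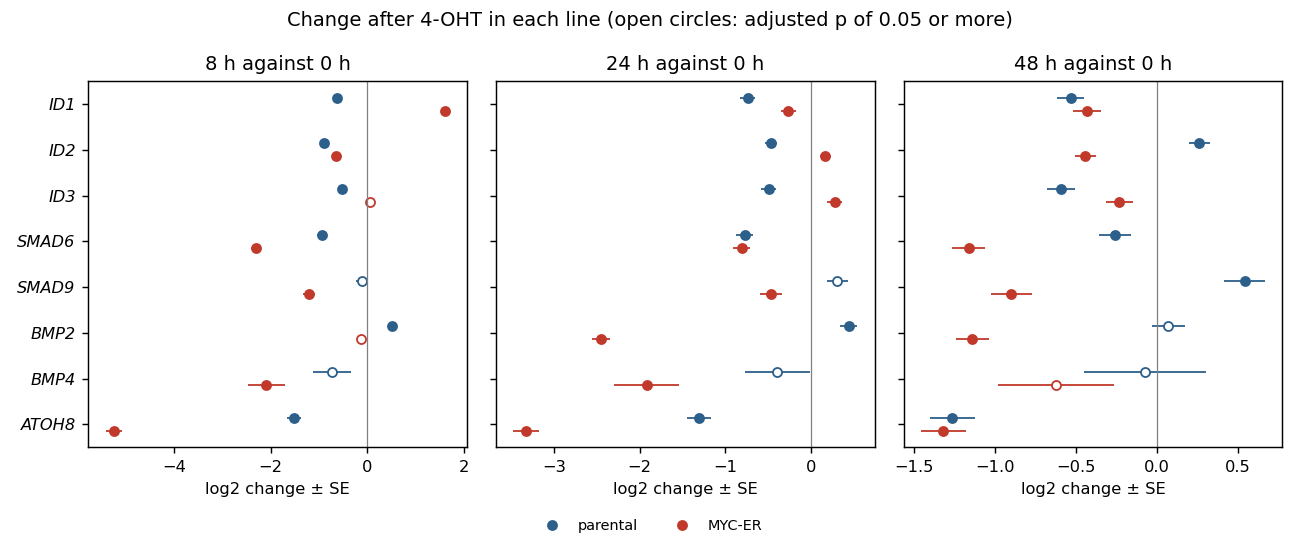
Log2 change from 0 h (x axis, with its standard error) at 8, 24 and 48 h for the 8 genes tested, parental in blue and MYC-ER in red, each panel on its own scale; open circles did not pass an adjusted p of 0.05. At 8 h ID1 lies at 1.61 in MYC-ER and -0.62 in parental cells, and ATOH8 at -5.24 and -1.51.

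Parental cells received 4-OHT without the fusion. Of the 8 genes, 1 was called higher there and 5 lower after 8 h (15% and 16% of all genes tested). After 24 h 1 was higher and 5 lower (21.2% and 21.7%), and after 48 h 2 were higher and 4 lower (20.4% and 20.1%). These changes share the same parental 0 h libraries, the labels name no vehicle control, and whether 4-OHT caused them was not tested. Both lines thus gave 1 higher and 5 lower at 8 h, yet ID1 was the gene called higher in MYC-ER and BMP2 that in parental cells. Leaving out any 1 of the parental 0 h libraries kept the 8 h change of ATOH8 between -1.65 and -1.41, that of ID1 between -0.74 and -0.52 and that of ID3 between -0.61 and -0.35. The spread behind these tests was shared over all 24 libraries and does not reflect the wider spread of the parental 0 h group. Over the 33 alternative fits the adjusted p at 8 h reached 0.012 for ATOH8 and 0.031 for ID1. Median log2 changes of the 8 genes were -0.68, -0.48 and -0.17, against -0.0016, -0.03 and -0.0016 over all genes tested. Without regard to sign they were 0.68, 0.48 and 0.40, against 0.28, 0.36 and 0.33.

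Base composition was related to parental changes over all genes, and the 8 genes of the set were not alike in this. GC content was taken from the longest transcript of each gene. Across 10779 genes of at least 10 CPM in their highest group mean, its Spearman correlation with the parental log2 change was -0.60, -0.65 and -0.64 at 8, 24 and 48 h. In MYC-ER it was 0.01, -0.07 and 0.02. Genes are not independent, and no p is given. ID1 (58.6% GC), ID3 (57.2%) and SMAD6 (58.9%) lie above the upper quartile of all genes tested (56.1%), and ATOH8 (55.3%), BMP4 (54.0%), ID2 (53.3%) and BMP2 (52.1%) above the median (48.6%), while SMAD9 (43.4%) lies below it. Once trends with GC and length had been taken out of every library, parental changes of ID1 were -0.31, -0.25 and -0.05 at 8, 24 and 48 h, those of ID3 -0.25, -0.05 and -0.14 (ID3 at 8 h was also not called when only the groups compared were fitted, at -0.52), and those of SMAD6 -0.79, -0.61 and -0.11. The 48 h change of all 3 genes, and ID3 at 24 h, no longer passed the threshold. ATOH8 remained at -1.35, -1.08 and -1.02, and BMP2, which rose against the trend, at 0.58, 0.53 and 0.18. ID2 was at -0.75, -0.20 and 0.54, and SMAD9 at -0.25, 0.03 and 0.28. The 8 h change of SMAD9, not called in the main fit, was then called lower (adjusted p = 0.042).

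**Figure D4:**
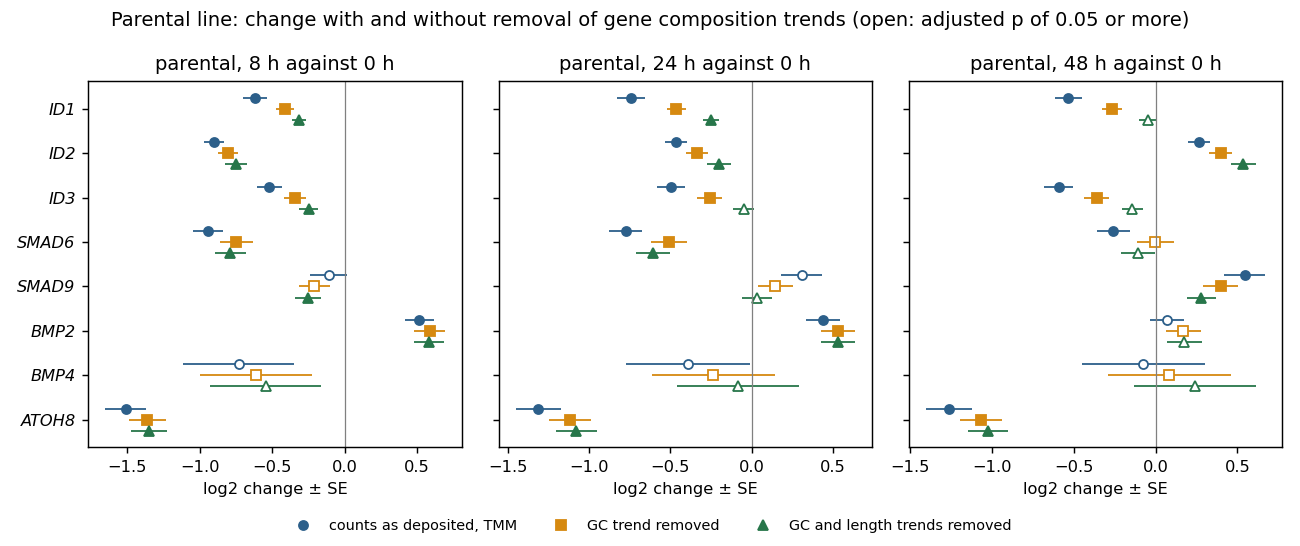
Log2 change from 0 h with standard error in parental cells at 8, 24 and 48 h for 8 genes, from the counts as deposited (blue circles), with GC trends removed (orange squares) and with GC and length trends removed (green triangles); open symbols did not pass an adjusted p of 0.05. ID1 at 48 h moves from -0.53 to -0.05, and ATOH8 from -1.26 to -1.02.

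The lines already differed before 4-OHT. At 0 h MYC-ER held more ATOH8 (58.1 ± 3.75 against 13.6 ± 2.45 CPM, 4.26-fold), BMP2 (17.2 ± 0.649 against 4.56 ± 0.472 CPM, 3.78-fold), BMP4 (3.12-fold), SMAD9 (2.33-fold) and ID2 (1.26-fold). It held less ID1 (80.7 ± 8.03 against 353 ± 56.7 CPM, 4.38-fold lower) and less ID3 (143 ± 7.85 against 325 ± 63.6 CPM, 2.28-fold lower). SMAD6 was at 0.21 ± 0.10 and did not pass (adjusted p = 0.081), though it did with GC trends removed (0.44) and with GC and length trends removed (0.29). Removing GC and length trends, ID1 was at -1.59 in place of -2.13, ID3 at -0.68 in place of -1.19, ID2 at 0.67 in place of 0.34 and ATOH8 at 2.35 in place of 2.09. So 5 of 8 genes were higher and 2 lower, against 31.6% and 32.7% of all genes. Leaving out any 1 of the parental 0 h libraries kept ID1 between -2.25 and -2.03 and ATOH8 between 1.95 and 2.20.

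Between the lines at 8 h 2 genes were higher in MYC-ER and 3 lower (23.1% and 25.5% of all genes). BMP2 (1.28 ± 0.10) and ID2 (0.59 ± 0.07) were higher, ATOH8 (-1.64 ± 0.15), SMAD6 (-1.16 ± 0.11) and ID3 (-0.62 ± 0.09) lower. ID1 was at 0.10 ± 0.08 (adjusted p = 0.36), and passed with GC and length trends removed (0.24). At 24 h 2 were higher and 3 lower (23.5% and 25.8%), with ID2 at 0.97 ± 0.07, SMAD9 at 0.44 ± 0.13, ID1 at -1.65 ± 0.09, BMP2 at -0.97 ± 0.10 and ID3 at -0.42 ± 0.09. At 48 h 3 were higher, ATOH8 at 2.04 ± 0.14, BMP4 at 1.09 ± 0.37 and BMP2 at 0.70 ± 0.10, and 4 lower, ID1 at -2.03 ± 0.09, ID3 at -0.83 ± 0.09, SMAD6 at -0.70 ± 0.10 and ID2 at -0.37 ± 0.07 (27.3% and 29.4%). BMP4 was not called there without MYC-ER 48 h replicate 1 (0.74) or parental 48 h replicate 2 (0.80). ATOH8 was thus above the parental level at 0 and 48 h, below it at 8 h, and at 0.08 ± 0.14 at 24 h (adjusted p = 0.68).

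The change in MYC-ER minus the change in parental cells, tested as a line by time interaction, was positive for 3 genes and negative for 5 at 8 h (27.3% and 27.8% of all genes). It was 2.23 ± 0.12 for ID1, 0.57 ± 0.12 for ID3 and 0.25 ± 0.09 for ID2, and -3.73 ± 0.21 for ATOH8, -1.36 ± 0.15 for SMAD6, -1.36 ± 0.54 for BMP4, -1.10 ± 0.18 for SMAD9 and -0.64 ± 0.14 for BMP2. With GC and length trends removed ID1 stood at 1.84, ATOH8 at -3.99, SMAD6 at -1.53 and BMP2 at -0.80, while ID3 (0.20) no longer passed and ID2 (-0.03) changed sign. The BMP4 difference (adjusted p = 0.037) rested on single libraries: it was -1.30 without MYC-ER 0 h replicate 1, -1.30 without MYC-ER 0 h replicate 3, -1.03 without MYC-ER 8 h replicate 3, -1.37 without parental 0 h replicate 1, -1.28 without parental 0 h replicate 2 and -1.03 without parental 8 h replicate 1, with adjusted p from 0.057 to 0.14. It was also not called with no filter on low counts (-1.35, adjusted p = 0.065). Over all 33 alternatives the adjusted p of BMP4 ran from 0.010 to 0.14. The ID2 difference (adjusted p = 0.030) was likewise lost without MYC-ER 0 h replicate 3 (0.25), MYC-ER 8 h replicate 3 (0.18), parental 0 h replicate 2 (0.21) or 3 (0.20), and parental 8 h replicate 1 (0.21) or 3 (0.25). It was also not called with plain library size (0.13), with GC trends removed (0.09), with at least 10 counts in every library (0.21) or with only the groups compared (0.28).

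At 24 h the difference was positive for 3 genes and negative for 4 (27.7% and 26.8%). BMP2 led with -2.89 ± 0.15, then ATOH8 with -2.01 ± 0.20, BMP4 with -1.53 ± 0.53 (-1.33 and no longer called without MYC-ER 24 h replicate 1) and SMAD9 with -0.78 ± 0.18. ID3 (0.77 ± 0.12), ID2 (0.63 ± 0.09) and ID1 (0.48 ± 0.12) were positive, ID1 turning to -0.06 with GC and length trends removed. At 48 h 1 was positive and 4 negative (23.6% and 21.4%): ID3 at 0.36 ± 0.12 (-0.15 with GC and length trends removed, 0.32 and not called without MYC-ER 0 h replicate 2), SMAD9 at -1.44 ± 0.18, BMP2 at -1.21 ± 0.14, SMAD6 at -0.91 ± 0.14 and ID2 at -0.71 ± 0.09. ATOH8 was at -0.06 ± 0.19 at 48 h (adjusted p = 0.85), a sign that flipped with library size (0.04). ID1 was at 0.10 ± 0.12 (adjusted p = 0.53), was called without parental 0 h replicate 2 (0.23), and was called in the other direction once GC and length trends were removed (-0.44, adjusted p = 2.8e-05, in a range over the alternatives from 2.8e-05 to 0.99). The 8, 24 and 48 h differences share the 0 h libraries of each line.

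Between successive times MYC-ER cells moved back and forth. From 8 to 24 h 5 genes rose and 2 fell (28.4% and 27.1% of all genes), with SMAD6 (1.498 ± 0.11), ATOH8, ID2 (0.82 ± 0.07), SMAD9 (0.74 ± 0.13) and ID3 (0.23 ± 0.09) up, and BMP2 (-2.33 ± 0.11) and ID1 down. From 24 to 48 h 3 rose, ATOH8, BMP2 and BMP4 (1.30 ± 0.37), and 4 fell, ID2 (-0.61 ± 0.07), ID3 (-0.51 ± 0.09), SMAD9 (-0.43 ± 0.13) and SMAD6 (-0.35 ± 0.10), against 28.2% and 25.5%. ID1 was at -0.17 ± 0.08 and not called (adjusted p = 0.11), but was called with GC trends removed (-0.25), with GC and length trends removed (-0.18), with only the groups compared (-0.21), and without MYC-ER 24 h replicate 2 (-0.24), MYC-ER 24 h replicate 3 (-0.24), parental 0 h replicate 2 (-0.17) or parental 8 h replicate 1 (-0.21). The ID3 rise was 0.20 without MYC-ER 8 h replicate 1, 0.20 without MYC-ER 8 h replicate 2 and 0.23 without MYC-ER 24 h replicate 1, and was not called in these. The BMP4 rise was 0.95 and not called without MYC-ER 48 h replicate 1.

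In parental cells few genes were called after 8 h. From 8 to 24 h 2 genes rose and none fell (6.48% and 4.46% of all genes): ID2 by 0.44 ± 0.07 and SMAD9 by 0.42 ± 0.13, the latter lost when any of 7 single libraries was left out, with values from 0.38 to 0.44. From 24 to 48 h 2 rose, ID2 by 0.73 ± 0.07 and SMAD6 by 0.52 ± 0.10, and 1 fell, BMP2 at -0.37 ± 0.10 (6.44% and 6.77%). The BMP2 fall was not called without parental 24 h replicate 1 (-0.36), parental 24 h replicate 3 (-0.32), parental 48 h replicate 1 (-0.35) or parental 48 h replicate 3 (-0.31). Without parental 0 h replicate 2, 5 genes passed between 24 and 48 h in place of 3, with ID1 (0.21) and SMAD9 (0.24) added.

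Levels were also put per kilobase of all annotated exons of a gene merged. Genes compare only roughly on this scale, since the transcripts expressed may be shorter, and the order of close values is not secured. ID1 in parental 0 h cells was the highest of the set at 286 ± 46.0 CPM per kilobase, followed by ID3 at 181 ± 35.4 and ID2 at 13.15 ± 1.45 CPM per kilobase. In the same cells SMAD9 was at 2.59 ± 0.784, ATOH8 at 2.24 ± 0.402, SMAD6 at 1.37 ± 0.0593, BMP2 at 1.27 ± 0.131 and BMP4 at 0.0963 ± 0.0105 CPM per kilobase (SD, n = 3). Ordering the 8 groups of each gene by mean CPM, 2 of the 7 neighbouring pairs overlapped for ID1, ID2, ID3, SMAD6 and BMP2, 3 for SMAD9 and ATOH8, 6 for BMP4 and all 7 for ID4. ID1 ran from parental 0 h (353 CPM) through MYC-ER 8 h and the 3 treated parental groups down to MYC-ER at 0, 24 and 48 h. ATOH8 ran from MYC-ER 0 h (58.1 CPM) and 48 h (23.3) through parental 0 h (13.6) to 4 overlapping groups between 4.78 and 5.80 CPM, and ended with MYC-ER 8 h (1.53).

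Patterns over the 8 group means were compared by root mean square difference of centred log2 CPM. Candidates were 10641 genes of at least 10 CPM in their highest group mean. The genes most like each of the set are given as a description. For ATOH8 they were FOXQ1 (0.47, where ATOH8 itself deviated by 1.505), TENT5B (0.49) and GHR (0.50). For SMAD6 they were HOXC13-AS (0.19, of 0.67), HOXC13 (0.23) and SLC9A3-AS1 (0.33). For ID1 they were KRT6C (0.28, of 0.94), STX1A (0.28) and SFN (0.28), and for ID3 UBL5 (0.11, of 0.43), MICOS10 (0.12) and ATP5MF (0.12). BMP2 was nearest to RASA3 (0.30, of 0.80), BMP4 to FOXO4 (0.11, of 0.75), SMAD9 to ZNF532 (0.15, of 0.42) and ID2 to PPT2 (0.21, of 0.44).

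Other ligand genes of the family include some that rose while BMP4 fell in MYC-ER cells. Of 12 other BMP ligand genes 6 could be tested, and at 8 h 3 were higher and 1 lower (32.2% and 35.4% of all genes). BMP6 had 0 to 3 counts per library at 0 h in MYC-ER, 337 to 412 after 8 h (2.59 ± 0.156 CPM), 431 to 637 after 24 h (3.31 ± 0.490 CPM) and 40 to 66 after 48 h (0.304 ± 0.0661 CPM), against 0.263 to 0.433 CPM on average in parental groups. BMP8B rose from 0.230 ± 0.0697 to 2.14 ± 0.213 CPM at 8 h and 3.62 ± 0.166 CPM at 24 h, and reads may be shared with its near copy BMP8A. In parental cells 1 of the 6, BMP8B, was higher at 8 h (0.98 ± 0.18), where 15% of all genes were.

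Among 9 tested receptor and co-receptor genes, 4 were higher and 3 lower at 8 h in MYC-ER, near the shares of all genes (32.2% and 35.4%). ENG, the co-receptor endoglin, went from 13.5 ± 0.864 to 116 ± 2.82 CPM after 8 h, 101 ± 4.17 after 24 h and 50.7 ± 2.02 after 48 h, and was at 53.1 to 59.5 CPM on average in parental groups (interaction after 8 h 3.13 ± 0.11). RGMA (1.90 ± 0.24) and RGMB (0.81 ± 0.07), repulsive guidance co-receptors of BMPs, rose, and the type II receptor ACVR2B fell by 1.21 ± 0.38. The type I receptor BMPR1A (-0.10 ± 0.09, adjusted p = 0.32) and the type II receptor BMPR2 (-0.35 ± 0.16, adjusted p = 0.054) did not pass, and ACVR1, another type I receptor, was at -0.21 ± 0.06 (adjusted p = 0.0037). In parental cells at 8 h 2 of the 9 were higher and none lower (15% and 16% of all genes), BMPR2 at 0.54 ± 0.16 and BMPR1B at 0.39 ± 0.09.

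Of 6 other SMAD and SMAD ubiquitin ligase genes, none was higher and 3 lower at 8 h in MYC-ER (32.2% and 35.4% of all genes), by small steps: SMAD4 at -0.31 ± 0.08, SMAD1 at -0.27 ± 0.09 and SMAD7 at -0.19 ± 0.08. SMAD5 was at -0.28 ± 0.14 (adjusted p = 0.086). The number called lower depended on the setting: 2 with DESeq2 size factors, where SMAD7 was lost (-0.15), 5 with library size, 5 with GC trends removed and 4 with GC and length trends removed, and none was higher in any of these. In parental cells 2 were higher at 8 h (15% of all genes), SMURF2 (0.32 ± 0.07) and SMAD4 (0.26 ± 0.08), and SMAD4 turned negative with GC and length trends removed.

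Of 9 tested BMP inhibitors, 3 were higher and 2 lower at 8 h in MYC-ER, where 32.2% and 35.4% of all genes were. BAMBI, a decoy receptor, rose from 4.27 ± 0.132 to 24.9 ± 1.04 CPM, was at 9.30 ± 0.677 CPM at 24 h and 6.33 ± 0.0981 CPM at 48 h, and ran from 16.6 to 22.2 CPM on average in parental groups. TWSG1, a BMP-binding protein, fell from 52.0 ± 3.04 to 25.4 ± 1.71 CPM, and NBL1 rose by 0.37 ± 0.08. The ligand trap NOG was at 0.47 ± 0.29 in MYC-ER (adjusted p = 0.16), and fell in parental cells from 2.19 ± 0.293 to 0.654 ± 0.183 CPM (log2 -1.74 ± 0.28, interaction 2.21 ± 0.40), where 1 of the 9 genes was higher and 3 lower (15% and 16% of all genes).

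Of 5 other transcription factors that respond to BMPs, 2 were higher and 2 lower at 8 h in MYC-ER, near the shares of all genes (32.2% and 35.4%). DLX3, a homeobox factor of surface epithelia, had its lowest MYC-ER mean at 8 h, as ATOH8 did. It was at 22.3 ± 1.07 CPM at 0 h, 0.519 ± 0.0317 after 8 h, 4.04 ± 0.298 after 24 h and 8.15 ± 0.779 after 48 h. The DLX3 change at 8 h was -5.42 ± 0.10, against -1.29 ± 0.08 in parental cells (8.73 to 3.58 CPM). RUNX2 rose by 3.23 ± 0.20 (0.295 to 2.79 CPM) and MSX1 by 0.52 ± 0.15, while HEY1 was lower by 0.32 ± 0.13 (log2 -0.32, lost with DESeq2 size factors at -0.28). Of the E proteins that ID proteins bind, TCF3 rose from 112 ± 5.43 to 199 ± 8.43 CPM at 8 h, TCF4 fell from 16.7 ± 1.08 to 8.76 ± 0.932 CPM, and TCF12 was at 0.06 ± 0.11 (adjusted p = 0.65).

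**Figure D5:**
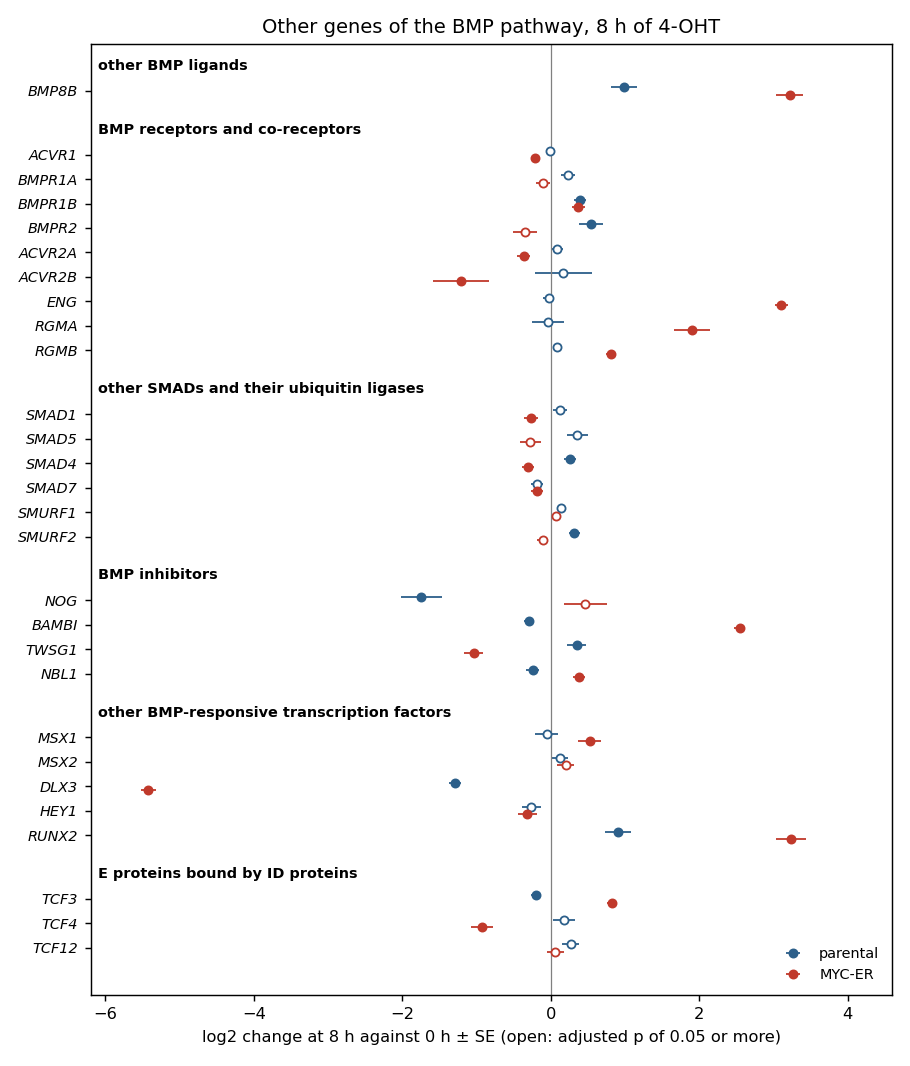
Log2 change at 8 h against 0 h with standard error for 28 other genes of the pathway that reach 1 CPM in some group, by list, parental in blue and MYC-ER in red; open circles did not pass an adjusted p of 0.05, and BMP6 is left out because it was near 0 counts in MYC-ER at 0 h. ENG (3.11), BMP8B, RUNX2 and BAMBI lie far to the right and DLX3 (-5.42) far to the left in MYC-ER.

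Scaling bore on these lists. Over 8, 24 and 48 h, 72 results of listed genes were called in MYC-ER against 0 h, of which 13 were lost and none changed sign under DESeq2 size factors, plain library size, or removal of GC trends or of GC and length trends. Of 53 such results in parental cells 28 were lost or changed sign, 15 of them changing sign. As bulk samples, these libraries cannot tell fewer cells of a type from less RNA per cell.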

How the data were processed

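RNA was measured by stranded, polyA-selected, paired-end RNA-seq, per the labels' protocols. The authors deposited whole-number counts per gene for 24 libraries, and the submitters' processing notes name Trimmomatic 0.39, STAR, StringTie 2.1.3b and GRCh38. How these counts were drawn, and whether strand was used, is not given in the sources used here; counts derived from transcript coverage would only approximate read numbers. Totals of 136860029 to 182438505 counts allow a count of 0 to stand for at most 0.0219 CPM (3 counts) in the smallest library, for counting error only.

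The counts were tested with edgeR 4.0.16 (limma 3.58.1, R 4.3.3), using TMM scaling, its filter on low counts (22158 genes kept) and quasi-likelihood tests with 1 mean per group over all 24 libraries. P-values were adjusted by Benjamini-Hochberg over all genes tested in each of 17 contrasts, with a threshold of 0.05. A calculation on simulated counts tested the fit. DESeq2 1.42.0 and 32 other alternatives were run. For composition, lowess trends (span 0.3) against the GC content of a gene's longest transcript, or against that and its length, were removed per library. GC and lengths came from GENCODE, and symbols, matched for 42044 of 60668 rows, from a gene name table. Members and gene lists were chosen with earlier results of these data known, in which ATOH8 had been singled out. Named pathway genes were up to 4 per list with the largest change among those called in a contrast and reaching 1 CPM in some group, with core receptors, SMADs, NOG and TCF12 added by name.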

Additional observations from a re-analysis of the deposited data

Results flagged for a closer look

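The change after 4-OHT differed between the lines in 20 of 24 gene and time results (line by time interaction, edgeR with Benjamini-Hochberg adjustment over all genes tested, log2 change in MYC-ER minus that in parental cells). At 8 h all 8 genes differed: ID1 by 2.23, ID3 by 0.57 and ID2 by 0.25, and ATOH8 by -3.73, SMAD6 by -1.36, BMP4 by -1.36, SMAD9 by -1.10 and BMP2 by -0.64. After 24 h 7 did: ID3 by 0.77, ID2 by 0.63, ID1 by 0.48, BMP2 by -2.89, ATOH8 by -2.01, BMP4 by -1.53 and SMAD9 by -0.78. After 48 h 5 did: ID3 by 0.36, SMAD9 by -1.44, BMP2 by -1.21, SMAD6 by -0.91 and ID2 by -0.71. Over all genes tested, 27.3% were positive and 27.8% negative at 8 h, so differing between the lines was common. The shares were 27.7% and 26.8% at 24 h, and 23.6% and 21.4% at 48 h. With GC and length trends removed, ID2 at 8 h, ID1 at 24 h and ID3 at 48 h changed sign, and ID3 at 8 h was not called. ID2 at 8 h was not called under 11 of the 33 alternatives. BMP4 at 8 and 24 h was lost when certain single libraries were left out, and at 8 h also with no filter on low counts.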

How the results depend on the processing

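Of 136 gene and contrast results, 102 were called, and 81 of these kept direction and call under all 33 alternatives, 24 of which left out a library. The 21 others were lost in at least 1, and 3 called results reversed: with GC and length trends removed, ID1 at 24 h (interaction, -0.0559), ID2 at 8 h (interaction, -0.0312) and ID3 at 48 h (interaction, -0.15). Among results that were not called, signs turned for ID3 in MYC-ER at 8 h (library size -0.0429, GC -0.0083, GC and length -0.0451, leaving out 1 library -0.0041 to 0.0778), BMP4 in parental cells at 48 h (GC 0.0851, GC and length 0.24), SMAD6 at 24 h (interaction, library size 0.0526), ID1 at 48 h (interaction, GC -0.15, GC and length -0.44), ATOH8 at 48 h (interaction, library size 0.0375) and ID1 in parental cells from 8 to 24 h (GC and length 0.0612). Leaving out 1 library also turned the sign of SMAD9 in parental cells at 8 h (-0.26 to 0.17), BMP2 there at 48 h (-0.0109 to 0.13), BMP4 there at 48 h (-0.26 to 0.22), BMP4 between the lines at 8 h (-0.0693 to 0.61), BMP4 between the lines at 24 h (-0.0993 to 0.31), the SMAD6 interaction at 24 h (-0.0727 to 0.0477), the ATOH8 interaction at 48 h (-0.16 to 0.0838), BMP4 in MYC-ER from 8 to 24 h (-0.16 to 0.52), ID3 in parental cells from 8 to 24 h (-0.0145 to 0.054) and ATOH8 in parental cells from 24 to 48 h (-0.0454 to 0.13). The number of the 8 genes called in parental cells at 48 h went from 6 to 3 with GC and length trends removed and 3 with only the groups compared, and from 8 to 24 h from 2 to 1 with library size and 1 with no filter (1 to 2 leaving out 1 library). From 24 to 48 h it was 3, or 2 to 5 leaving out 1 library. Plain library size moved the median of all genes by 0.16 in MYC-ER at 48 h and by 0.21 from 8 to 24 h. The cause of these shifts was not tested. Same-numbered libraries did not pair (mean correlation of deviations -0.0022 over 84 pairs, 17 of them over 0.1, and 9 of 24 libraries closest to their own number); the replicate block changed none of the 136 calls, with ID1 at 1.61 and ATOH8 at -5.24 in MYC-ER at 8 h. Counts limited BMP4 (16 to 173 per library) and ID4 (0 to 20).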
